A study of Mus musculus with 23 samples.

Results

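Hearts with no intact Grk2 allele in the Cre lineage were compared with hearts that kept 1 Grk2 allele, across all genes. The 2 groups, 7 libraries labelled triple knockout and 8 labelled haploinsufficient, make up 15 of the 23 libraries of the series and were chosen by their genotype label and count column. All came from hearts at embryonic day 13.5 with the strain label C57BL/6. The haploinsufficient hearts were GRK2 fl/wt and the triple knockout hearts GRK2 fl/fl. Both groups were also GRK5 fl/fl and GRK6 KO/KO and carried Nkx2.5Cre, so loss of Grk5 and Grk6 is common to both and cannot show in their difference. The other 8 libraries, wild type at the 3 genes and without Cre, entered the fit for a shared estimate of spread and are given as a reference level. Recombination by Nkx2.5Cre is limited to cells in which the Nkx2-5 driver was active, the cardiac lineage, and other cells of the heart keep the floxed alleles. Nothing in the labels says that replicates were separate embryos. The p-values therefore cover the spread among these libraries, part or all of which could be technical.

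GRK2, GRK5 and GRK6 are kinases that phosphorylate G-protein coupled receptors once an agonist has activated them. Arrestins then bind the receptor, uncouple it from its G protein and carry it into the cell. GRK2, encoded by Adrbk1, is recruited to the membrane by G protein beta-gamma subunits, is needed for formation of the embryonic heart, and also takes part in Hedgehog signalling through Smoothened. The largest set among the genes that differed encodes core histones, whose messenger RNAs are made in bulk while DNA is copied. These messengers end in a conserved stem-loop in place of a poly(A) tail, and the libraries were made from ribosomal RNA depleted total RNA, which keeps such transcripts.

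The stem-loop was looked for in the sequences of the genes tested, and is shown for 4 histone genes that fell. A search for the stem-loop core (GGC, any base, CTTTT, any base, AG, any base, GCC) in GENCODE vM21 transcripts (GRCm38) found it, in the sense strand, in 35 of the 13139 tested genes matched by symbol, or 0.266%. Of these, 33 were among the 55 replication-type histone symbols tested (Hist1h to Hist4h), and 9 were among the 17 histone symbols called lower. A transcript without a match says only that these letters are not in it. Below, the 16 bases of the core are in capitals with 5 flanking bases on each side, for an H4, an H2A, an H3 and a further H2A gene. They lie at chr13:23581945-23581970 (plus strand), chr13:23570663-23570688, chr13:23745042-23745067 and chr3:96220413-96220438 (minus strand).

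Hist1h4d: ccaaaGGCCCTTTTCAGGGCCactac

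Hist1h2ae: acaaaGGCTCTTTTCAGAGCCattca

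Hist1h3c: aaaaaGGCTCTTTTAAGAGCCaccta

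Hist2h2ac: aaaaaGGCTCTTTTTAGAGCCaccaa

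Histone H4 was the class with the most called genes, and its promoters share short elements. RefSeq promoter windows (GRCm38.p6, 250 bases before and 50 after the start) were matched for 10 of the H4 symbols, 9 of them called lower. GGTCCG, the core of the element known from H4 promoters, was present on either strand in 9 of the 10 windows, 8 of the 9 called, against 8.25% of 32817 promoter windows. TATAA, the core of the TATA box, was present on either strand in 9 of the 10, against 24.9% of all windows. It was also in 39 of the 49 windows matched for histone symbols of any class, so it is not particular to H4. GGTCCG was in 11 of those 49. The motifs do not overlap each other, and a match is not evidence of binding. Below, both motifs on either strand are in capitals in 3 called H4 genes, 2 on chromosome 13 and 1 on chromosome 6: Hist1h4k at chr13:21750504-21750803 (minus strand), Hist1h4d at chr13:23581318-23581617 (plus strand) and Hist4h4 at chr6:136804382-136804681 (minus strand). In Hist1h4d, TATAA and its reverse complement overlap.

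Hist1h4k: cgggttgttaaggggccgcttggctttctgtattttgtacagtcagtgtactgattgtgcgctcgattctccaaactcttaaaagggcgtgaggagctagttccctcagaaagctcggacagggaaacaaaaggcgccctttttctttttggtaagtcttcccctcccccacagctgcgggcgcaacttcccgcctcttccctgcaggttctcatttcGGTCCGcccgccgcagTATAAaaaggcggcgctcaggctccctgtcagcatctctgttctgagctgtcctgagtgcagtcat

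Hist1h4d: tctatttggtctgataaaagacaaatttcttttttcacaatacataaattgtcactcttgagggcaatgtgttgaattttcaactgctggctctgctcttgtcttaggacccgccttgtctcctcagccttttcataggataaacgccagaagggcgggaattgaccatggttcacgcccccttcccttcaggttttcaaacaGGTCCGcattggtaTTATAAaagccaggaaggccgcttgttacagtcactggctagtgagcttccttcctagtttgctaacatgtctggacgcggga

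Hist4h4: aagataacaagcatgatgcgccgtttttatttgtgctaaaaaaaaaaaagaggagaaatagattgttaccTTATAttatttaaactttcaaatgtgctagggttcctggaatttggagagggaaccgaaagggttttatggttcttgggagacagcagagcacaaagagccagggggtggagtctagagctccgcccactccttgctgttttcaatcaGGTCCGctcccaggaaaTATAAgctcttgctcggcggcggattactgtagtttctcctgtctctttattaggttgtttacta

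Haploinsufficient libraries held 1757257 to 11025358 counts, and triple knockout libraries 6657734 to 13864731, so depth differs between the groups. A gene with no count could be present at up to 1.71 CPM (counts scaled to a common library size after TMM normalization) in the shallowest library, haploinsufficient replicate 2, and at up to 0.216 CPM in the deepest, triple knockout replicate 1, at a limit of 3 counts. Such limits cover counting error only. Libraries carry ID numbers in 2 runs, IDs 1 to 12 and IDs 19 to 30, each holding both groups, and the run was a term of the fit. Haploinsufficient replicate 3 stood apart from the other 7 of its group, with the lowest summed histone level (4357 CPM, next 5391) and the highest slope on exon length (0.092, next 0.030).

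The alleles that differ by label were not told apart by the RNA. Adrbk1 read 21.8 to 57.4 CPM (median 46.4) in the haploinsufficient libraries, 26.3 to 42.7 CPM (median 33.8) in the triple knockout libraries and 48.8 to 60.4 CPM in wild type. All 7 triple knockout values lay inside the haploinsufficient range. The fitted log2 fold change, triple knockout minus haploinsufficient, was -0.32 ± 0.14 (SE), with an adjusted p of 0.279 in edgeR's quasi-likelihood test with Benjamini-Hochberg adjustment. It was -0.05 in IDs 1 to 12 and -0.56 in IDs 19 to 30. Exons 3 to 6 held 4.30% of the Adrbk1 counts in triple knockout libraries and 3.98% in haploinsufficient libraries (n = 7 and 8, two-sided exact permutation test, p = 0.825). These shares ranged from 1.63% to 7.95% and from 0.431% to 9.47%, and rest on 3 to 19 and 1 to 20 counts per library, so a difference was not detectable at this depth. Exons 3 to 6 were taken from an earlier analysis of these data and are not an independent choice. Which exons the floxed allele loses is not given in the sources used here. The groups are taken from the labels alone. In bulk RNA, fewer cells of a type and less RNA per cell cannot be told apart, here and for every gene that follows.

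For the alleles that the groups share, no difference passed the test. Grk6 exons 3 to 9 held 0 to 3 counts in each haploinsufficient library and 0 to 2 in each triple knockout library, against 53 to 188 in each wild-type library. Whole-gene Grk6 differed by -0.10 ± 0.16 (adjusted p = 0.802), Grk5 by 0.09 ± 0.14 (0.818) and the Cre transcript by 0.09 ± 0.24 (0.889), on the log2 scale in edgeR. Nkx2-5, which lies at the driver locus and encodes a homeobox factor of the cardiac lineage, read 47.5 to 94.0 CPM and 26.5 to 61.7 CPM, a log2 fold change of -0.48 ± 0.15 that did not pass the threshold (adjusted p = 0.141). Of 8 GPCR kinase and arrestin genes tested, 0 passed in either direction, where 0.394% of all genes did. Adrbk2 (GRK3) was at 0.12 ± 0.10, Arrb1 at 0.04 ± 0.09 and Arrb2 at 0.22 ± 0.12.

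Of 13946 genes tested, 55 passed an adjusted p of 0.05, 11 higher and 44 lower in triple knockout libraries. These are 0.394%, 0.0789% and 0.316% of the genes tested. At such shares a short list of genes can hold 0 calls without differing from all genes. At an unadjusted p under 0.05 there were 2138 genes, with 7.19% of all genes higher and 8.14% lower, and by sign alone 49.6% of all genes were lower. Of the 55, 44 differed by at least 0.5 log2 units and 6 by at least 1. Groups did not overlap in CPM for 4 of the 55, against 0.0287% (higher) and 0.0645% (lower) of all genes. These were Ppp1r9a among those that rose, and Ifrd1, Emc6 and Tomm22 among those that fell. All 55 had the same sign in both ID runs, which is favoured by calling them on both runs together. For 52 of the 55 the wild-type mean lay between the means of the GRK-deficient groups.

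This list depends on the libraries that enter the fit and on how the fit is made. Fitted to the 15 libraries alone, edgeR called 1 gene, Hist1h2an (1803 at an unadjusted p under 0.05), and with offsets corrected for exon length it called 0 (1397 at an unadjusted p under 0.05, smallest adjusted p 0.101), while DESeq2 called 274 (1.96%). All 55 kept their sign in each of these fits. Without haploinsufficient replicate 1, 2, 4, 7 or 8, the edgeR fit called 13, 23, 30, 16 or 15 genes, and without replicate 3 it called 416. Without triple knockout replicate 1, 2, 3, 6 or 7, it called 16, 11, 10, 27 or 25, and without replicate 5 it called 93. Without the 2 shallowest libraries, haploinsufficient replicates 2 and 4, it called 0 (1712 at an unadjusted p under 0.05).

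Histone genes were the largest group of genes that fell. Of 55 replication-type histone symbols tested, 17 were called lower and 0 higher, against 0.316% and 0.0789% of all genes. A negative fold change was found in 54, against 49.6% of all genes. The median log2 fold change over the 55 was -0.67, against 0.0028 over all genes tested. By class, 9 of 11 H4 genes, 5 of 12 H2A, 2 of 10 H3, 1 of 16 H2B and 0 of 6 linker H1 genes were called lower, with class medians of -0.76, -0.79, -0.69, -0.51 and -0.46. The class medians rank differently from the shares called. Many histone genes are near-identical copies, so reads may have been split between them and single-gene values are uncertain.

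The summed level of the histone symbols was 4357 to 9576 CPM (median 7198) in the haploinsufficient libraries, 3824 to 5496 CPM (median 4927) in the triple knockout libraries and 4633 to 6546 CPM (median 5590) in wild type. Of the 8 haploinsufficient libraries, 6 exceeded every triple knockout library. The 2 groups overlapped through haploinsufficient replicates 3 and 6. Means were 7112 ± 1716 CPM (SD, n = 8) and 4654 ± 600.4 CPM (SD, n = 7).

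**Figure D1:**
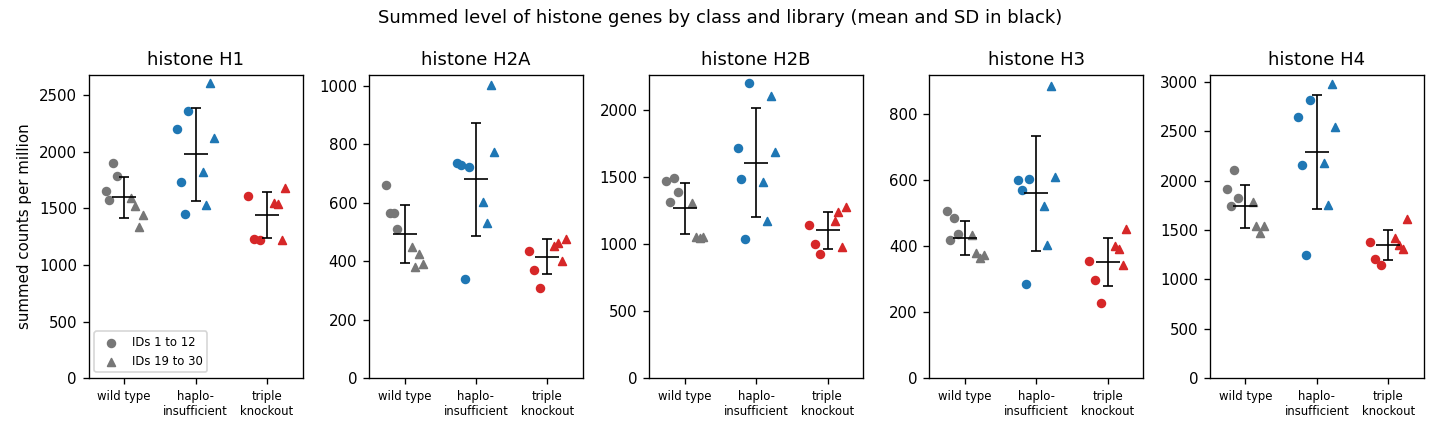
Summed CPM of the histone genes of each class (panels H1, H2A, H2B, H3 and H4; y axis from 0), 1 point per library, by group, with circles for IDs 1 to 12, triangles for IDs 19 to 30, and the mean with SD in black. In each class the mean was higher in haploinsufficient than in triple knockout libraries, and in H4 the triple knockout libraries sat between 1145 and 1610 CPM while haploinsufficient replicate 3 (1243 CPM) was the only library of its group within that range.

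Hist1h2af, which encodes a core histone H2A, fell most. It read 16.1 to 39.8 CPM (median 30.1) in haploinsufficient and 6.51 to 17.2 CPM (median 10.9) in triple knockout libraries, 2.36-fold lower (log2 -1.24 ± 0.19 SE, adjusted p = 0.00576). The groups met at their edges, with 2 libraries of each inside the range of the other. Hist1h2an, also H2A, read 12.7 to 32.3 CPM (median 22.3) and 8.53 to 14.6 CPM (median 10.98), 2.03-fold lower (-1.02 ± 0.17, adjusted p = 0.0134). Hist1h3c, an H3 gene, read 24.4 to 70.0 CPM (median 52.0) and 17.1 to 30.8 CPM (median 24.05), 2.01-fold lower (-1.01 ± 0.18, adjusted p = 0.0146). In both, 1 haploinsufficient library lay inside the triple knockout range.

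Among H4 genes, which encode an identical core histone, Hist1h4k fell most. It read 56.0 to 162 CPM (median 115) and 44.6 to 83.7 CPM (median 57.8), 1.97-fold lower (-0.98 ± 0.17, adjusted p = 0.0134). Haploinsufficient replicate 3, its lowest library, was the only one of its group inside the triple knockout range. The other called H4 genes, Hist1h4b, Hist1h4a, Hist1h4h, Hist1h4d, Hist1h4f, Hist1h4j, Hist1h4c and Hist4h4, fell by 1.83-fold to 1.56-fold. Hist4h4 lies outside the main cluster, on chromosome 6, and read 212 to 428 CPM and 143 to 252 CPM (-0.65 ± 0.12, adjusted p = 0.0164). The remaining called core histones were Hist1h2ae (1.90-fold), Hist1h2ak (1.88-fold), Hist2h2ac (1.68-fold), Hist1h3h (1.64-fold) and Hist1h2bg (1.56-fold lower). Hist1h2ak and Hist1h2ae each hold a library far from its group. Haploinsufficient replicate 7 was highest for Hist1h2ak, at 110 CPM, and triple knockout replicate 3 was lowest for Hist1h2ae, at 16.1 CPM.

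Variant histones were among the calls too. H2afz, the variant H2A.Z found at promoters, read 253 to 501 CPM and 222 to 264 CPM, 1.51-fold lower (-0.59 ± 0.12, adjusted p = 0.0199). H2afx, the variant H2A.X that is phosphorylated at DNA breaks, read 95.1 to 239 CPM and 93.7 to 107 CPM, 1.497-fold lower (-0.58 ± 0.12, adjusted p = 0.0283). In each, 1 haploinsufficient library lay inside the triple knockout range.

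Of 36 S phase genes tested, 0 were called, against 0.394% of all genes, so 0 calls say little about this list. By sign 32 had a negative fold change, against 49.6% of all genes. At an unadjusted p under 0.05, 12 were lower and 0 higher, against 8.14% and 7.19% of all genes. The median was -0.15. Named members were Ccne2, a cyclin of the S phase entry, at -0.64 ± 0.20 (adjusted p = 0.129), Slbp, the protein that binds the histone stem-loop, at -0.33 ± 0.13 (0.211), and Gins2, of the replicative helicase, at -0.34 ± 0.12 (0.199). Of 32 mitosis genes 0 were called, with a median of -0.07. There, Cdc20 (-0.38 ± 0.11) and Mki67 (0.35 ± 0.13) had fold changes of opposite sign.

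The histone difference had the same direction in both ID runs and was smaller after correction for exon length. The median over the 55 symbols was -0.74 in IDs 1 to 12 and -0.57 in IDs 19 to 30, but -0.34 with offsets corrected for exon length, where 0 were called and 32 were lower at an unadjusted p under 0.05. Without libraries of a high score for lung, foregut, liver and thymus genes, haploinsufficient replicates 1, 7 and 8, triple knockout replicates 1, 3 and 7 and wild-type replicate 4, the median was -0.37 and 0 were called. Left out 1 at a time, triple knockout replicates 2 and 3 left 4 calls each, haploinsufficient replicates 1, 7 and 8 left 5 each, triple knockout replicate 1 left 6, haploinsufficient replicate 2 and triple knockout replicate 6 left 10 each, and haploinsufficient replicate 4 left 11. Without haploinsufficient replicates 6 and 3 the calls were 26 and 43.

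Small messengers of the translation and respiratory machinery also had negative fold changes, with few calls. Of 76 Rpl and Rps symbols tested, 75 had a negative fold change, against 49.6% of all genes. At an unadjusted p under 0.05, 51 were lower, against 8.14% of all genes, and 3 were called lower, against 0.316%. Those were Rplp2 (0.65 log2 units lower), Rps20 (0.52 lower) and Rps13 (0.51 lower), and the median was -0.30. It was -0.49 in IDs 1 to 12 and -0.14 in IDs 19 to 30. The median exon length of these symbols was 693.5 bases. Among all genes with an exon length of 56 to 1659 bases, 77.2% had a negative fold change. Rplp2, of the ribosomal stalk, read 198 to 459 CPM and 207 to 256 CPM, with an adjusted p of 0.0164. Haploinsufficient replicate 3 lay below every triple knockout library and the other 7 above them. Of 73 mitochondrial ribosomal protein symbols, 2 were called lower, against 0.316% of all genes. They were Mrpl52 (-0.55 ± 0.12) and Mrpl43 (-0.41 ± 0.09). The median over the 73 was -0.24, with -0.40 and -0.10 in the 2 ID runs.

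Of 36 complex I symbols (Nduf), 2 were called lower, against 0.316% of all genes. The median was -0.32, with -0.58 in IDs 1 to 12 and -0.10 in IDs 19 to 30. Ndufc1, a small complex I subunit, read 28.2 to 79.9 CPM (median 51.7) and 16.8 to 38.1 CPM (median 28.1), 1.88-fold lower (-0.91 ± 0.16, adjusted p = 0.0146). Ndufa12 read 126 to 321 CPM (median 200) and 92.9 to 144 CPM (median 133), 1.65-fold lower (-0.73 ± 0.13, adjusted p = 0.0164). For both, the upper triple knockout values lay within the haploinsufficient range. Coa6, an assembly factor of cytochrome c oxidase, fell 1.84-fold (-0.88 ± 0.20, adjusted p = 0.041), Romo1, a small mitochondrial membrane protein, 1.52-fold, and Tomm22, of the outer membrane import channel, 1.35-fold. Triple knockout replicate 3 had the lowest Coa6, 4.27 CPM. In a list of 39 nuclear-encoded respiratory chain genes, 0 were called, against 0.394% of all genes, which is no result about them. At an unadjusted p under 0.05, 16 were lower, against 8.14% of all genes. The median of this list was -0.23, which was -0.53 in IDs 1 to 12 and 0.01 in IDs 19 to 30. With offsets for exon length the medians were -0.04 (ribosomal), -0.10 (mitochondrial ribosomal) and -0.07 (complex I).

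Among the other genes that fell, 2 encode noncoding RNAs. Rpph1, the RNA of RNase P, which trims transfer RNAs, read 6145 to 15713 CPM in haploinsufficient, 4192 to 6631 CPM in triple knockout and 13541 to 20105 CPM in wild-type libraries, 1.77-fold lower than in the haploinsufficient group (-0.83 ± 0.16, adjusted p = 0.0199). Only haploinsufficient replicate 3 lay inside the triple knockout range. Near-identical copies make Rpph1 counts uncertain. Snora78, a small nucleolar RNA that guides RNA modification, fell 1.94-fold (-0.96 ± 0.21, adjusted p = 0.035). It was the only one called of 77 symbols of small nucleolar and Cajal body RNAs, where 0.394% of all genes were called. Among messengers, Lsm4, Snrnp48 and Sf3b5 of the splicing machinery fell 1.46-fold, 1.46-fold and 1.45-fold, and Ran, a GTPase of nuclear transport, 1.35-fold.

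Further genes that fell were Scand1, a nuclear protein with a SCAN domain, at 3.78 to 23.5 CPM and 3.58 to 9.22 CPM (-1.21 ± 0.25, adjusted p = 0.0283), and Arl6ip6 (-0.84 ± 0.16, adjusted p = 0.0164). Lower by less were Mzt1, of the microtubule nucleating complex, Bok, a BCL2 family member, Ifrd1, Emc6, of a membrane insertion complex, Alkbh7 and Gorasp1, of the Golgi stack, by 1.47-fold to 1.32-fold. Ifrd1 read 25.02 to 35.8 CPM and 16.7 to 23.2 CPM, Emc6 36.6 to 58.8 CPM and 29.9 to 35.8 CPM, and Tomm22 87.5 to 134 CPM and 69.8 to 86.6 CPM. In these 3 genes every haploinsufficient library exceeded every triple knockout library.

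The 11 genes that rose were Cacna1b, Anpep, Col6a6, Frs2, Tmem255a, Slc35b4, Cdon, Lama2, Med13, Ppp1r9a and Slc23a2. Cacna1b, the pore subunit of the N-type calcium channel of nerve endings, read 0.444 to 2.59 CPM (median 0.944) and 1.66 to 9.21 CPM (median 2.97), 3.38-fold higher (log2 1.76 ± 0.36 SE, adjusted p = 0.0283). Counts are low here, and the highest value came from triple knockout replicate 1. Anpep, an aminopeptidase of the cell surface, read 1.38 to 5.67 CPM (median 3.51) and 4.24 to 11.5 CPM (median 9.08), 2.28-fold higher (1.19 ± 0.27, adjusted p = 0.041). Wild-type libraries read 6.50 to 15.2 CPM, a range that overlaps the triple knockout libraries and lies above every haploinsufficient one.

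Col6a6, a chain of type VI collagen, read 37.4 to 60.0 CPM (median 49.5) and 51.0 to 154 CPM (median 73.7), 1.85-fold higher (0.89 ± 0.20, adjusted p = 0.0475). The log2 fold change was 1.22 in IDs 1 to 12 and 0.56 in IDs 19 to 30. Lama2, the laminin alpha chain of muscle basement membrane, read 76.3 to 118 CPM (median 89.4) and 102 to 152 CPM (median 122), 1.36-fold higher (0.45 ± 0.10, adjusted p = 0.0433). Cdon, a cell surface co-receptor for Hedgehog ligands, read 75.9 to 124 CPM (median 91.0) and 111 to 149 CPM (median 137), 1.44-fold higher (0.53 ± 0.10, adjusted p = 0.0164). For Lama2 2 haploinsufficient libraries lay in the triple knockout range, and for Cdon 1. Of 22 Hedgehog pathway genes tested, Cdon was the only one called, where 0.394% of all genes were. The median of this list was -0.02, with 0.34 in IDs 1 to 12 and -0.27 in IDs 19 to 30.

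Frs2, an adaptor of fibroblast growth factor receptors, read 18.1 to 33.5 CPM (median 22.9) and 32.3 to 58.4 CPM (median 38.4), 1.73-fold higher (0.79 ± 0.18, adjusted p = 0.0475). The groups met only between 32.3 and 33.5 CPM. Tmem255a, a membrane protein, rose 1.59-fold (0.67 ± 0.15, adjusted p = 0.041), Slc35b4, a transporter of nucleotide sugars into the Golgi and endoplasmic reticulum, 1.53-fold (0.61 ± 0.14, adjusted p = 0.0433), Med13, a Mediator subunit, 1.35-fold (0.44 ± 0.10, adjusted p = 0.041), and Slc23a2, a vitamin C transporter, 1.30-fold (0.38 ± 0.09, adjusted p = 0.0484). Ppp1r9a, a scaffold of actin and protein phosphatase, read 88.1 to 120 CPM (median 95.5) and 120 to 158 CPM (median 134), 1.34-fold higher (0.43 ± 0.09, adjusted p = 0.035). Its groups did not overlap.

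**Figure D2:**
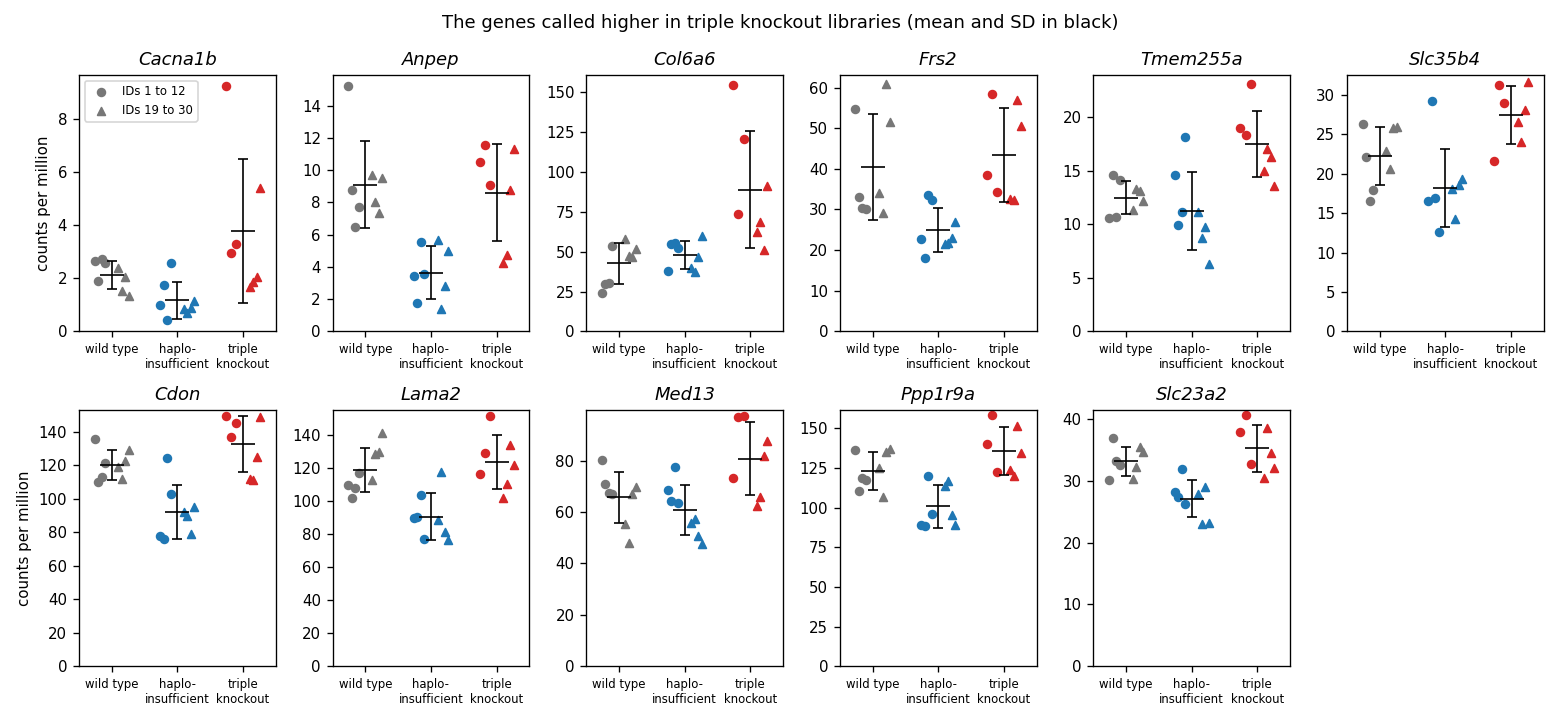
CPM of each of the 11 genes that rose (panels, y axis from 0), 1 point per library and group, with circles for IDs 1 to 12, triangles for IDs 19 to 30, and the mean with SD in black. Triple knockout means lay above haploinsufficient means in every panel, and for Cacna1b and Col6a6 the highest points were triple knockout libraries of IDs 1 to 12, at 9.21 and 154 CPM.

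Just outside the threshold among genes with positive fold changes were Adam23 (0.87 ± 0.21, adjusted p = 0.0584), Cdh5 (0.49 ± 0.12, 0.0586), Ptprm (0.47 ± 0.11, 0.0586) and Ptprd (0.46 ± 0.11, 0.0568). Adam23 read 4.22 to 7.12 CPM and 7.16 to 17.0 CPM, with no overlap. Cdh5, the cadherin of endothelial junctions, read 102 to 165 CPM and 140 to 228 CPM. Of 34 endothelial and endocardial genes 0 were called, against 0.394% of all genes, so 0 calls is no result about this list. By sign 21 had a positive and 13 a negative fold change (lowest -0.65), where 50.4% of all genes were positive. The median was 0.08, with Kdr (0.42 ± 0.12, adjusted p = 0.102), Flt4 (0.43 ± 0.13, 0.119) and Stab2 (1.13 ± 0.35, 0.138) the next named. The summed level of 5 endothelial markers was 593 to 737 CPM in haploinsufficient and 689 to 847 CPM in triple knockout libraries. None of those 5 was called, and the part of cell number in it was not tested.

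Of 44 atrioventricular canal, cushion and valve genes tested 0 were called in either direction, with a median of 0.04. With 0.394% of all genes called, 0 calls is no result about a list of this size. Jag1, a Notch ligand, was at 0.45 ± 0.13 (adjusted p = 0.116), Heyl, a Notch effector, at 0.58 ± 0.21 (0.184), Bmpr2, a BMP receptor, at 0.40 ± 0.16 (0.233) and Scx at -0.49 ± 0.19 (0.232). Of 35 cardiac transcription factor genes 0 were called. The Iroquois homeobox genes Irx3, at 10.99 to 31.2 CPM and 7.59 to 13.2 CPM, and Irx5 had log2 fold changes of -0.80 ± 0.20 (adjusted p = 0.070) and -0.61 ± 0.17 (0.0975). For Irx3 3 and for Irx5 4 of the 7 triple knockout values lay inside the haploinsufficient range, and the rest below it.

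The lists of contraction and excitation genes had 0 calls, against 0.394% of all genes, which is likewise no result about their members. They held 32 sarcomere and Z-disc genes (median 0.01), 28 calcium handling genes (0.18), 29 ion channel and junction genes (0.14) and 21 ventricular and atrial genes (-0.04). Ryr3, a calcium release channel, read 17.8 to 46.4 CPM and 34.3 to 59.1 CPM (0.70 ± 0.17, adjusted p = 0.0599), and Bmp10, a ligand made by heart muscle, 29.4 to 62.2 CPM and 50.4 to 95.9 CPM (0.58 ± 0.18, 0.131). The summed level of 7 cardiomyocyte markers was 28511 to 80286 CPM (median 54665) and 44102 to 81665 CPM (median 75049), and none of the 7 was at 0 throughout either group. Of 32 cyclic AMP, PKA and phosphodiesterase genes 0 were called (median 0.14), likewise of 36 G protein and RGS genes (median 0.04) and of 30 cardiac receptors (median 0.07). Pde2a, a phosphodiesterase that degrades cyclic AMP and cyclic GMP, was at 0.45 ± 0.13 (adjusted p = 0.112).

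Among the other lists the matrix genes gave 1 call of 43, Lama2, with a median of 0.13. With 0.394% of all genes called, 0 calls in the lists that follow is no result about their members. No call was made among 45 Notch and Wnt genes (median 0.03), 33 axon guidance genes (0.15), 30 fatty acid genes (0.09), 28 cholesterol genes (0.02), 31 glycolysis and hypoxia genes (0.04), 27 imprinted genes (0.16), 33 stress and p53 genes (-0.07), 28 immediate early and stretch genes (-0.05), 22 epicardial and smooth muscle genes (-0.07), 18 retinoid and aldehyde genes (-0.05), 15 mitochondrial genome genes (-0.04, from -0.85 in IDs 1 to 12 and 0.53 in IDs 19 to 30) and 18 skeletal muscle and cartilage genes (-0.14). Blood and macrophage genes, 23 in number, also had no call (median 0.05). Near the threshold, Junb (-0.70 ± 0.18) and Jund (-0.43 ± 0.11), members of the AP-1 factor, both had an adjusted p of 0.078, as did the matrix collagen gene Col12a1 (0.83 ± 0.22) and Csf1r (0.47 ± 0.12), the receptor of macrophages. Peg3, an imprinted zinc finger gene, was at 0.43 ± 0.11 (adjusted p = 0.077).

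Markers of neighbouring tissue varied between libraries within both groups. For the 17 lung, foregut, liver and thymus genes tested 0 were called, against 0.394% of all genes, so 0 calls say little about this list. All 17 had a negative fold change, against 49.6% of all genes, with a median of -0.68. The summed level of 8 markers of these tissues was 9.87 to 134 CPM (median 29.2) in haploinsufficient and 8.99986 to 86.1 CPM (median 23.8) in triple knockout libraries. The list's median was 0.05 in IDs 1 to 12 and -0.58 in IDs 19 to 30. Each run was filtered for low counts anew, so these medians can rest on fewer genes than that of all libraries. Apoa1, at -1.48 in all libraries, was not tested in IDs 19 to 30. For 16 neural crest, neuron and glia genes 0 were called, likewise no result about them, and 15 had a positive fold change, against 50.4% of all genes. Their median was 0.73, which was 2.01 in IDs 1 to 12 and -0.0025 in IDs 19 to 30. L1cam, an adhesion molecule of axons, was at 1.75 ± 0.52 (adjusted p = 0.119). A fit with the tissue score as a term called 161 genes, all 55 among them. A fit without the 7 libraries of a high score called 0 (824 at an unadjusted p under 0.05).

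The 55 called genes had the same direction in both ID runs. They were called on both runs together, which favours genes that are alike in both. Neither the shared direction nor a lack of interaction among them is therefore an independent check. The median of the 44 that fell was -0.75 in IDs 1 to 12 and -0.69 in IDs 19 to 30, and that of the 11 that rose 0.58 and 0.56. The difference was larger in IDs 1 to 12 for 35 of the 55. A test of the difference itself, the interaction of group and ID run in edgeR, called 12 genes (0.086%), none of them among the 55. For all 12 the fold change, triple knockout minus haploinsufficient, was negative in IDs 1 to 12 and positive in IDs 19 to 30. Among them were 7 small nucleolar or Cajal body RNAs (Snord8, Snora33, Snora7a, Snora52, Snord15a, Snord16a and Scarna8), which guide chemical modification of other RNAs, and Vaultrc5, a vault RNA. Snord8, an example, had log2 fold changes of -1.66 and 0.40 in the 2 runs. The median over 77 symbols of that kind was -0.55 in all libraries, -1.77 in IDs 1 to 12 and 0.20 in IDs 19 to 30. Without haploinsufficient replicate 3 or 8 or triple knockout replicate 7 the interaction test called 163, 46 or 206 genes. Without haploinsufficient replicate 1, 2, 4, 5 or 6 it called 3 or 4, and without triple knockout replicate 1, 2, 3, 4 or 6 it called 2 or 3.

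**Figure D3:**
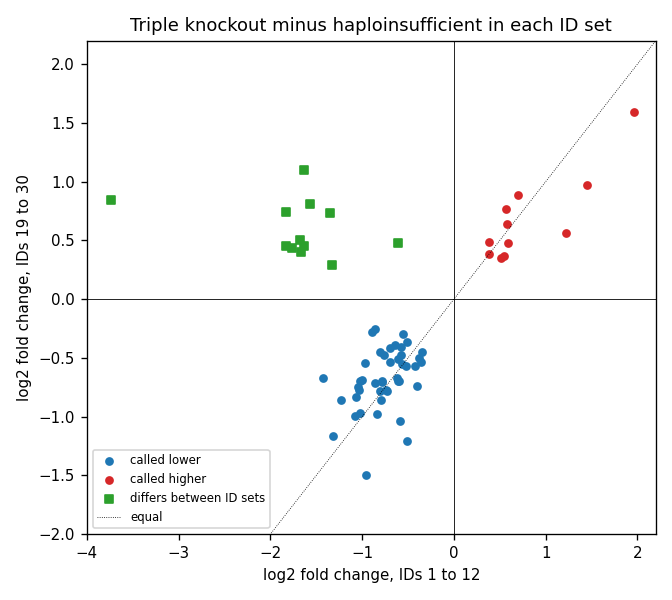
Log2 fold change, triple knockout minus haploinsufficient, in IDs 1 to 12 (x axis) against IDs 19 to 30 (y axis), with the 44 genes called lower in blue, the 11 called higher in red, the 12 genes of the interaction test as green squares and a dotted line of equality. All called genes lay in the lower left or upper right quadrant, and the 12 others in the upper left.

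Exon length ordered the fold changes across all genes. Genes were split into 5 length classes of near equal size. The shortest class (exon length 56 to 1659 bases) had a median log2 fold change of -0.18, with 77.2% negative, and the longest class (4899 to 104320 bases) a median of 0.15, with 19.6% negative. Of the genes called lower, 37 of 44 were in the shortest class and 0 in the longest, and of the genes called higher 8 of 11 were in the longest and 0 in the shortest. Median exon length was 598.5 bases for genes that fell, 7214 for genes that rose and 2945 for genes tested. With offsets corrected per library for exon length, the 5 classes had medians between -0.019 and -0.0020, and the called genes kept their direction at a median of -0.40 (lower) and 0.57 (higher), with 0 past the threshold.

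**Figure D4:**
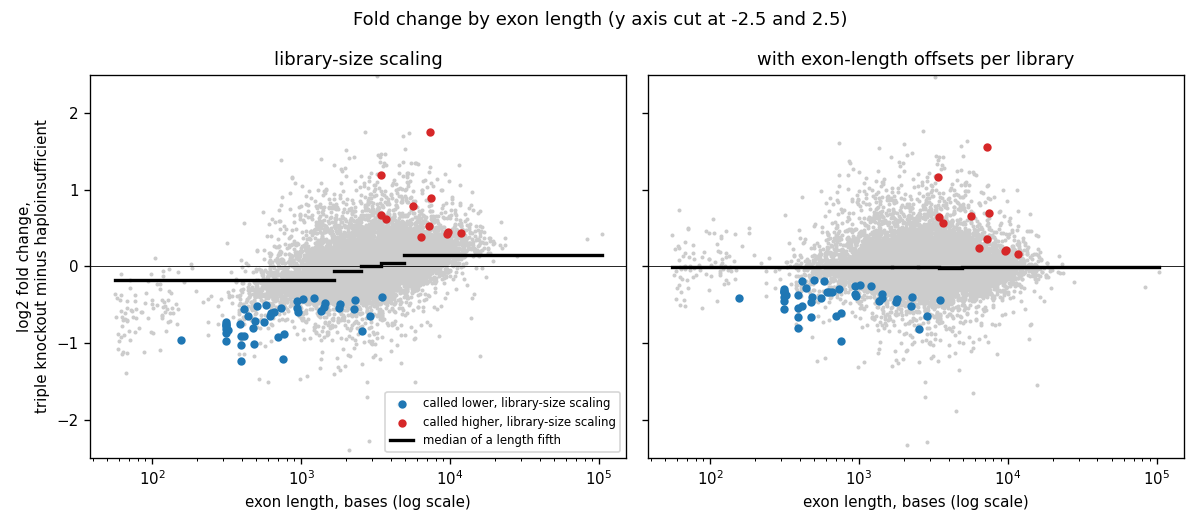
Log2 fold change (triple knockout minus haploinsufficient) against exon length in bases on a log axis, 1 point per gene, without (left) and with (right) per-library offsets for exon length, with genes called lower in blue, genes called higher in red and black bars for the median of each length class. The bars climb from -0.18 to 0.15 on the left and lie near 0 on the right, where the called genes stay on their side of 0.

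The same relation was measured in each library. The slope of a library's log2 CPM deviation on log2 exon length was -0.199 to 0.092 (median -0.076) in haploinsufficient libraries and -0.061 to 0.153 (median 0.086) in triple knockout libraries. Means were -0.058 ± 0.089 and 0.051 ± 0.082 (SD, n = 8 and 7), which differ by 0.109 (two-sided exact permutation test, p = 0.0312, with a smallest possible p of 0.0001554). The ranges overlapped, with 5 of 7 triple knockout slopes and 2 of 8 haploinsufficient slopes above 0. The difference was 0.196 in IDs 1 to 12 (exact p = 0.0571) and 0.039 in IDs 19 to 30 (exact p = 0.429). Without haploinsufficient replicate 2 or 4, or triple knockout replicate 1, 2, 3 or 7, the exact p lay between 0.0507 and 0.0646. The wild-type mean was 0.013. Genotype and the length dependence of the libraries cannot be told apart in these groups.

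**Figure D5:**
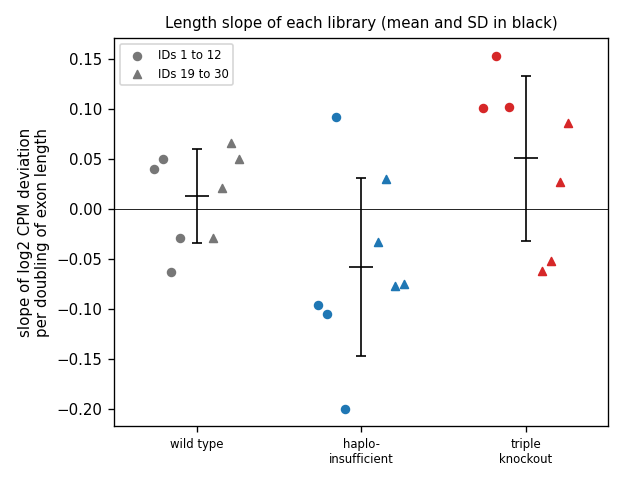
Slope of log2 CPM deviation per doubling of exon length (y axis), 1 point per library by group, with circles for IDs 1 to 12, triangles for IDs 19 to 30, and the mean with SD in black. The 3 triple knockout libraries of IDs 1 to 12 lie at 0.101, 0.102 and 0.153, and haploinsufficient replicate 4 lies lowest at -0.199.

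Genes that flank the floxed Adrbk1 allele on chromosome 19 were counted beside all genes. Within 10 Mb, 215 genes were tested and 0 were called, against 0.394% of all genes. At an unadjusted p under 0.05, 8 were higher and 29 lower, against 7.19% and 8.14% of all genes. The median was -0.07, against 0.0028 over all genes. The smallest p belonged to Rnaseh2c, a subunit of ribonuclease H2, at 33.8 to 85.2 CPM and 22.8 to 50.1 CPM (-0.67 ± 0.16, adjusted p = 0.0599), then to Mpeg1 (1.00 ± 0.26, 0.078), a macrophage pore protein, Sac3d1 (-0.53 ± 0.14, 0.0807) and Patl1 (0.50 ± 0.14, 0.0914). Each of the 4 overlapped between groups.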

How the data were processed

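Total RNA from flash frozen embryonic hearts was depleted of ribosomal RNA and read as non-stranded single ends, per the labels' protocols, so overlapping and antisense genes cannot be told apart. The deposited values are whole-number read counts per gene and FPKM, both made by the authors. The submitters' processing notes name TopHat2 2.0.10, Bowtie2, HTSeq and Cufflinks 2.1. Features of 1 gene were summed. All 23 libraries entered edgeR 4.0.16 (R 4.3.3; TMM, minimum count 10, minimum total 15, group and ID run as terms), which tested 13946 of 23458 genes by the quasi-likelihood test with Benjamini-Hochberg adjustment at 0.05. Every adjusted p printed is from that fit unless another tool is named. CPM use TMM-scaled library sizes, except the limits for genes with no count, which use total counts. Log2 CPM, from which library slopes and tissue scores were taken, use a prior count of 1, and edgeR's fold changes its default prior count. Alternatives used DESeq2 1.42.0, limma 3.58.1 on log2(FPKM + 1) and log2(FPKM + 0.1), loess offsets for exon length from the deposited annotation, and fewer libraries. Fits on fewer libraries were filtered anew, so the medians of a list in each ID run can rest on fewer of its members. The 33 tested genes without an exon length were given the median. The script was tested on simulated data with 200 changed genes.

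Genes named are the targeted genes and Cre, up to 15 called genes with the largest fold change in each direction (filled with the smallest p where fewer were called), up to 4 members of each list and 4 genes within 10 Mb of Adrbk1 by smallest p. Sex-linked markers and unnamed gene models were left out. Other called genes were named after their values were seen, as were the promoter motifs. Members and lists were chosen with earlier results of these data known.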

Additional observations from a re-analysis of the deposited data

Results flagged for a closer look

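In 5 of 78 tests of a group's values for 1 gene, 1 library stood far from the rest of its group (Dixon's test, which chance passes in about 1 in 20 groups). Coa6 was lowest in triple knockout replicate 3, at 4.27 CPM against 6.17 for the next library. Hist1h2ae was lowest in the same library, at 16.1 CPM against 22.4. Hist1h2ak was highest in haploinsufficient replicate 7, at 110 CPM against 58.6. Slc35b4 was highest in haploinsufficient replicate 2, the shallowest library, at 29.2 CPM against 19.4, and Grk5 was lowest in haploinsufficient replicate 8, at 8.24 CPM against 12.6.

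For 10 named genes the difference between the groups itself differed between ID runs in edgeR's interaction test (adjusted p from 0.0118 to 0.0457). The log2 difference in IDs 1 to 12 minus that in IDs 19 to 30 was -2.74 for Snora33, -2.58 for Scarna8, -2.28 for Snora52, -2.21 for Snord16a, -2.10 for Snora7a, -2.09 for Snord15a and -2.07 for Snord8, all RNAs that guide RNA modification. It was -1.62 for the vault RNA Vaultrc5, -2.19 for C5ar2, a complement receptor, and -1.09 for Icam2, an adhesion molecule of endothelium. Each had a negative fold change, triple knockout minus haploinsufficient, in IDs 1 to 12 and a positive one in IDs 19 to 30.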

How the results depend on the processing

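All 55 called genes kept their sign in every alternative (54 of 54 measured in limma). All 55 calls were kept with the tissue score as a term and without haploinsufficient replicate 3, 54 in DESeq2, 51 with upper-quartile scaling, 50 with no ID term, 50 with no filter on low counts, 49 with a sex term, 11 in IDs 1 to 12 alone, 1 with the 15 libraries alone and 0 in IDs 19 to 30 alone. Against 55 calls (11 higher, 44 lower), edgeR made 88 (24 higher) with no filter on low counts, 176 (67 higher, 109 lower) in IDs 1 to 12 alone and 161 (69 higher, 92 lower) with the tissue score as a term, and DESeq2 made 274 (85 higher, 189 lower). Back in edgeR, 1 call (0 higher, 1 lower) was made with the 15 libraries alone and 1 in IDs 19 to 30 alone. In edgeR 0 calls were made without libraries of a high tissue score and without the 2 shallowest libraries. The same held with exon length offsets, with those in the 15 libraries alone, and with the length slope as a term. In limma 0 calls were made at both pseudocounts. The fits with the slope term, without the shallowest libraries and with offsets in 15 libraries were chosen after seeing the data. Leaving out 1 library gave 10 to 416 calls, 1 to 161 higher and 9 to 255 lower. Same-numbered libraries correlated between -0.051 and 0.467, and 1 of 7 correlated best with its own number, so they share only a number; the replicate block made 0 calls (1942 genes at an unadjusted p under 0.05) and gave Grk5 -0.035. The interaction count of 12 was 1 with 15 libraries, 79 in DESeq2 and 2 to 206 without 1 library. The length slope difference was 0.196 in IDs 1 to 12, 0.0387 in IDs 19 to 30 and 0.0886 to 0.130 without 1 library. The Adrbk1 exon share difference was -0.221 in IDs 19 to 30 and -0.291 to 1.10 without 1 library (-0.190, -0.0309 and -0.0913 without haploinsufficient replicates 1, 3 and 8; -0.103 without triple knockout replicate 4). The sign turned for some uncalled genes, of which only examples are given. With offsets in all and in 15 libraries these included Adrbk2 (-0.047 and -0.041) and Arrb1 (-0.14 and -0.14). In IDs 19 to 30 they included Arrb1 (-0.0064), Tcap (0.039), Tnni3 (0.028), Tnnt1 (0.021), mt-Atp8 (0.076) and Myl2 (0.13). In IDs 1 to 12 they included Cre (-0.19), Grk5 (-0.14) and Eltd1 (-0.17). Grk6 turned without high tissue scores (0.19), and Zmat3 (-0.064) and Grk6 (0.066) with the slope term. Without 1 library, Cre ranged from -0.013 to 0.21, Grk5 from -0.0036 to 0.14 and Grk6 from -0.19 to 0.021. The causes were not tested. In the shallowest library a gene with no count could be present at up to 1.71 CPM, above the median of Cacna1b in haploinsufficient libraries (0.944 CPM).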
